A study of Mus musculus with 24 samples.

Results

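The oxidative phosphorylation genes described here are the 90 symbols, of 21909 in the expression tables, whose names belong to the nuclear gene series for subunits of the respiratory chain and of ATP synthase (names starting with Nduf and then a, b, s, v or c, with Uqcr or with Atp5, the genes Sdha to Sdhd and Cyc1, and the Cox genes of subunits IV to VIII that end in a digit or letter of the isoform). They comprise 7 core subunits, 29 accessory subunits and 8 assembly factors of complex I, 4 subunits of complex II, 9 of complex III, 15 of complex IV, 15 of complex V, the pair Ndufa4 and Ndufa4l2, and Atp5s, which carries the name of the series without being a structural subunit. The rule reads names alone and used no measured value.

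The study mapped nucleolus-associated domains (NADs), the parts of the genome that touch the nucleolus, in mouse embryonic stem cells (ESCs) and in neural progenitor cells (NPCs) by Nucleolar-DamID, in which a DNA-methylating enzyme is directed to the nucleolus. Messenger RNA was sequenced in 3 ESC and 3 NPC samples, each from a culture dish of its own, among 24 samples in all. The comparison of NPCs with ESCs asks how RNA levels differ between the stem cells and the progenitors made from them.

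The ESCs were untreated cells of the E14 line, grown without feeder cells on gelatin in serum-free 2i medium with N2 and B27, LIF at 1000 U/ml, CHIR99021 at 3 µM and PD0325901 at 1 µM. The NPCs were derived in culture from E14, as embryoid bodies in suspension in medium with fetal calf serum for 8 days, of which the last 4 days were with retinoic acid at 2 µM. All samples thus come from 1 parental line, and the cell type, the medium, the form of the culture and anything that differed in the handling of the 2 sets of libraries cannot be told apart. RNA was selected by its poly(A) tail. Library sizes recovered from the values were 34.05, 33.73 and 30.78 M reads for the ESC samples, by replicate number, and 30.15, 27.26 and 32.3 M reads for the NPC samples.

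The labels were checked against marker genes, in RPKM, in which reads are divided by the size of the library and by the whole span of the gene. The most abundant gene of a marker list is here the one with the highest RPKM, an order that depends on the gene spans. Pou5f1, a transcription factor that maintains pluripotency, measured 130.0, 136 and 202 RPKM in ESC replicates 1, 2 and 3 and 0.0558, 0.0386 and 0.0651 RPKM in NPC replicates 1, 2 and 3. Nanog measured 101, 98.9 and 94.8 RPKM in ESC replicates 1, 2 and 3 and 0.0696, 0.0667 and 0.026 RPKM in NPC replicates 1, 2 and 3. Zfp42, a further gene of the pluripotent state, measured 39.3, 39.1 and 44.3 RPKM in ESC replicates 1, 2 and 3 and 0.0195, 0.00616 and 0.0156 RPKM in NPC replicates 1, 2 and 3. Each of these 3 genes was high in the ESC samples and under 0.1 RPKM in the NPC samples, as were Esrrb and Tfcp2l1, and 8 of 8 ESC markers were lower in NPCs. Their summed level was 1812, 1800.4 and 3658 RPKM in the ESC samples and 9.33, 10.8 and 12.2 RPKM in the NPC samples, with Dppa5a the most abundant gene in ESCs and Sox2 in NPCs.

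Of the markers of neural progenitors and radial glia, Pax6 measured 0.0134, 0.0167 and 0.00457 RPKM in ESC replicates 1, 2 and 3 and 1.55, 1.42 and 1.67 RPKM in NPC replicates 1, 2 and 3. Nes, an intermediate filament gene of progenitors, measured 3.79, 3.25 and 3.33 RPKM in ESC replicates 1, 2 and 3 and 29.8, 32.7 and 29.4 RPKM in NPC replicates 1, 2 and 3. Fabp7, a fatty acid binding protein gene of radial glia, measured 0, 0.00831 and 0 RPKM in ESC replicates 1, 2 and 3 and 0.864, 1.39 and 1.07 RPKM in NPC replicates 1, 2 and 3. The NPC samples were the higher ones for each of the 3, and Pax6, Fabp7, Hes5 and Slc1a3 were under 0.1 RPKM in all ESC samples. The summed level of the 7 markers was 39.7, 41.2 and 49.6 RPKM in ESCs and 80.9, 85.03 and 87.2 RPKM in NPCs, with Vim the most abundant in both, and 4 of the 5 tested were higher in NPCs (5 of 5 without ESC replicate 3).

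Markers of other cell types moved with the groups as well. The 6 endoderm markers summed to 0.0977, 0.115 and 0.0834 RPKM in ESCs and to 14.7, 16.2 and 15.7 RPKM in NPCs, where Gata6 had the highest RPKM and Afp was under 0.1 RPKM. In reads, Gata4 reached 14155 in a sample and Gata6 7398. For the 8 heart and skeletal muscle markers the sums were 2.55, 2.63 and 3.85 RPKM in ESCs and 8.62, 14.6 and 15.7 RPKM in NPCs, with Myl7 the most abundant and the only gene tested, higher in NPCs, and with Myh6, Myh7, Ttn and Ckm under 0.1 RPKM in all NPC samples. Of the untested muscle markers Ttn, at 0.486, 0.474 and 0.0777 RPKM in ESCs, and Myh6 were lower in every NPC sample, Myh7, Tnnt2, Actc1 and Acta1 were higher, and Ckm overlapped. The 5 mesoderm markers summed to 1.42, 1.45 and 1.27 RPKM in ESCs and 4.02, 3.78 and 3.62 RPKM in NPCs, where Kdr was the most abundant, and T, Mixl1 and Mesp1 were under 0.1 RPKM. T, the most abundant of this list in ESCs at 0.964, 1.04 and 0.869 RPKM, and Mixl1 were lower in every NPC sample, and Tbx6 was higher. Neuron markers summed to 11.1, 12.2 and 14.5 RPKM in ESCs and 6.88, 5.55 and 6.64 RPKM in NPCs. Tubb3 had the highest RPKM in both, though Stmn2 reached 10539 reads in a sample and Tubb3 2705. Rbfox3 was under 0.1 RPKM in NPCs, and 2 of 2 tested were lower (Tubb3 and Stmn2). The other 4 neuron markers, Dcx, Elavl3, Map2 and Rbfox3, were not tested and were higher in every NPC sample than in every ESC sample, with Dcx at 0 in ESCs and at 1.05, 0.821 and 0.874 RPKM in NPCs. The 3 neural crest markers summed to 7.66, 8.14 and 7.17 RPKM in ESCs and 1.11, 1.06 and 1.11 RPKM in NPCs, with Foxd3 the most abundant in both, while Tfap2b, at 0 in ESCs and at 0.173, 0.167 and 0.195 RPKM in NPCs, and Sox10, under 0.1 RPKM in all samples, were higher in every NPC sample. The 4 germ cell markers summed to 3.44, 2.94 and 3.47 RPKM in ESCs, mostly Dazl, and to 0.0168, 0.0286 and 0.00684 RPKM in NPCs, where all 4 were under 0.1 RPKM. A gene under 1 RPKM in every sample of a cell type could pass the filter only through the other, which set the direction of its call. This holds for all tested markers except Sox2, Klf4, Nes, Vim, Tubb3 and Myl7. The part of such cells in the results was not tested, and in these bulk samples fewer cells of a type and less RNA per cell cannot be told apart.

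ESC replicate 3 stands apart from the other ESC samples, and its departure runs with transcript length. Between ESC replicates 1 and 2 the squared differences in read counts were 6.26 times what counting error gives (chi-square per degree of freedom), and between replicates 1 and 3 and replicates 2 and 3 they were 320.5 and 297 times, while the 3 NPC pairs lay between 3.21 and 9.04. Members are short: their median transcript has 824 bases, against 2804 for all genes tested, and 63 members are under 1200 bases. For all genes tested, ESC replicate 3 minus the mean of replicates 1 and 2, on the log2(RPKM + 1) scale, had a median of 0.91 for transcripts under 600 bases and -0.37 for those of 4000 bases and over. For members the same median was 0.92 under 600 bases and 0.27 between 2000 and 4000 bases (7 genes), and 0.82 over all 80 tested. Of these 80, 76 had their highest ESC value in replicate 3 and 4 their lowest, against 43.3% of all genes with the highest value there, and 65 were at least 1.5 times and 31 at least 2 times the mean of replicates 1 and 2. Spearman's rho between the departure and transcript length was -0.72 across the 7763 tested genes with a length and -0.50 across the 80 members, a description across genes that share the same 3 libraries. Comparisons are therefore given with and without ESC replicate 3.

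A weaker trend with length separates the cell types as well when ESC replicate 3 is left out. The median log2 difference of NPCs from ESC replicates 1 and 2, over all genes tested, was -0.43 for transcripts under 600 bases, -0.36 from 600 to 800, -0.35 from 800 to 1200, -0.15 from 1200 to 2000, 0.011 from 2000 to 4000 and 0.20 from 4000 bases. Members in the same bins had medians of -0.82, -0.63, -0.56, -0.50, -0.30 and -1.401, the last from 1 gene, Atp5g1, which has 4715 bases in GENCODE and 805 in RefSeq. Members were thus lower than genes of similar length in each bin under 4000 bases, by less than the distance of -0.56 between members and all genes. A further value is given for this reason, in which the trend of each sample with transcript length was removed before the test, without ESC replicate 3 (called here the difference with length removed, an alternative added after seeing the data).

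**Figure D1:**
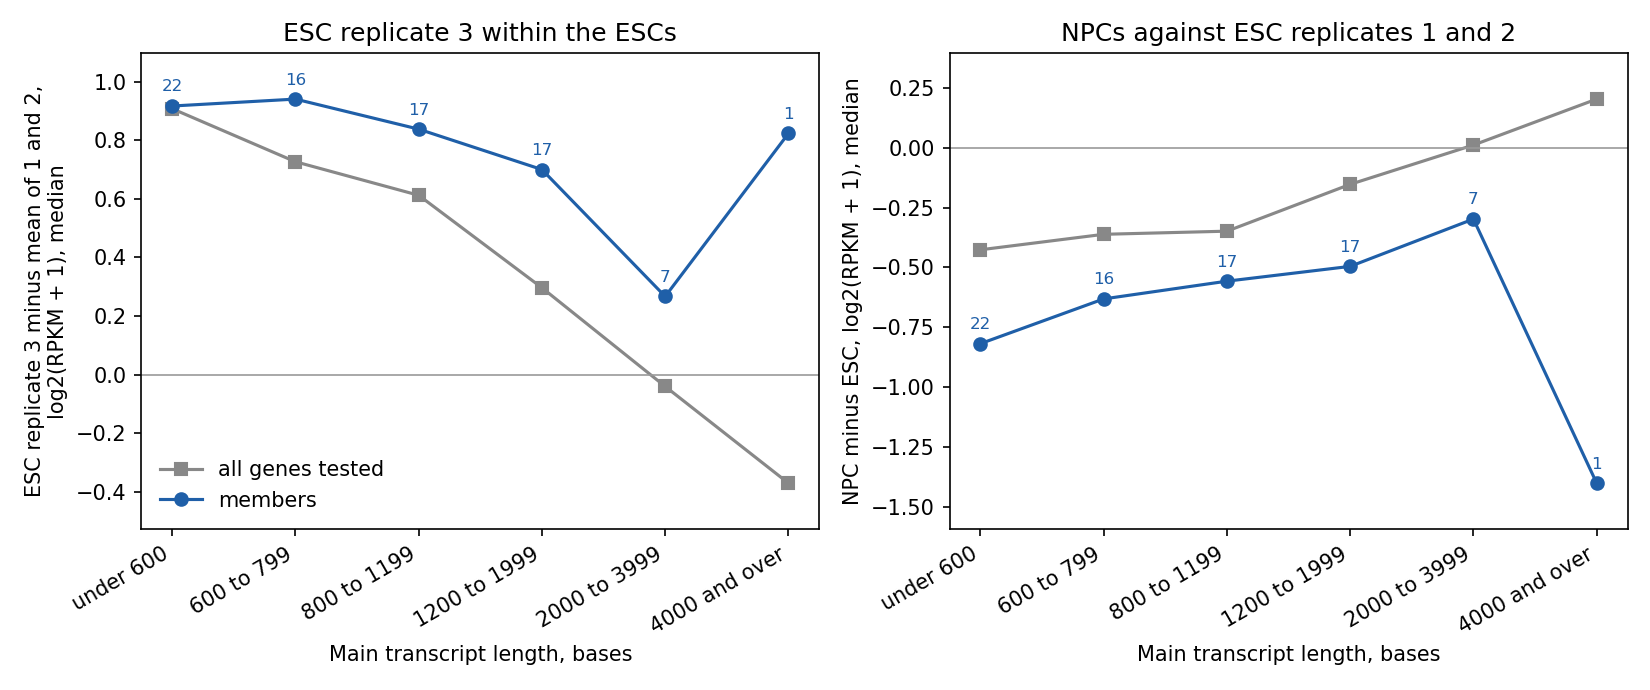
Median difference by length of the main transcript in bases, for all genes tested (grey squares) and for members (blue circles, with their number), on the left for ESC replicate 3 minus the mean of ESC replicates 1 and 2 and on the right for NPCs minus ESC replicates 1 and 2, both on the log2(RPKM + 1) scale. On the left all genes run from 0.91 to -0.37, and on the right from -0.43 to 0.20, and members lie below all genes in each bin on the right, of which the last holds Atp5g1 alone.

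Oxidative phosphorylation couples the transfer of electrons to the making of ATP in the inner mitochondrial membrane. Complexes I and II pass electrons from NADH and succinate to ubiquinone, complex III passes them on to cytochrome c and complex IV to oxygen, and the protons pumped by complexes I, III and IV drive ATP synthase, complex V. Pluripotent stem cells rely strongly on glycolysis, and differentiation is known to bring changes in the balance of glycolysis and respiration.

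Reads on members made up 1.31%, 1.35% and 2.16% of all reads in ESC replicates 1 to 3, and 0.813%, 0.838% and 0.838% in NPC replicates 1 to 3. Every NPC sample lay below every ESC sample, and ESC replicate 3 lay far above the rest. Complex V took the largest part in each sample, with 0.599%, 0.613% and 0.881% of reads in ESCs and 0.351%, 0.358% and 0.361% in NPCs. Complex IV had 0.173%, 0.176% and 0.325% in ESCs and 0.0857%, 0.0943% and 0.0924% in NPCs, and complex I accessory subunits 0.191%, 0.2002% and 0.386% in ESCs and 0.138%, 0.140% and 0.141% in NPCs. On the scale of RPKM per transcript length (the same reads divided by the length of the main transcript), the median member had 94.1, 98.5 and 187 in ESCs and 66.9, 69.2 and 69.6 in NPCs.

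**Figure D2:**
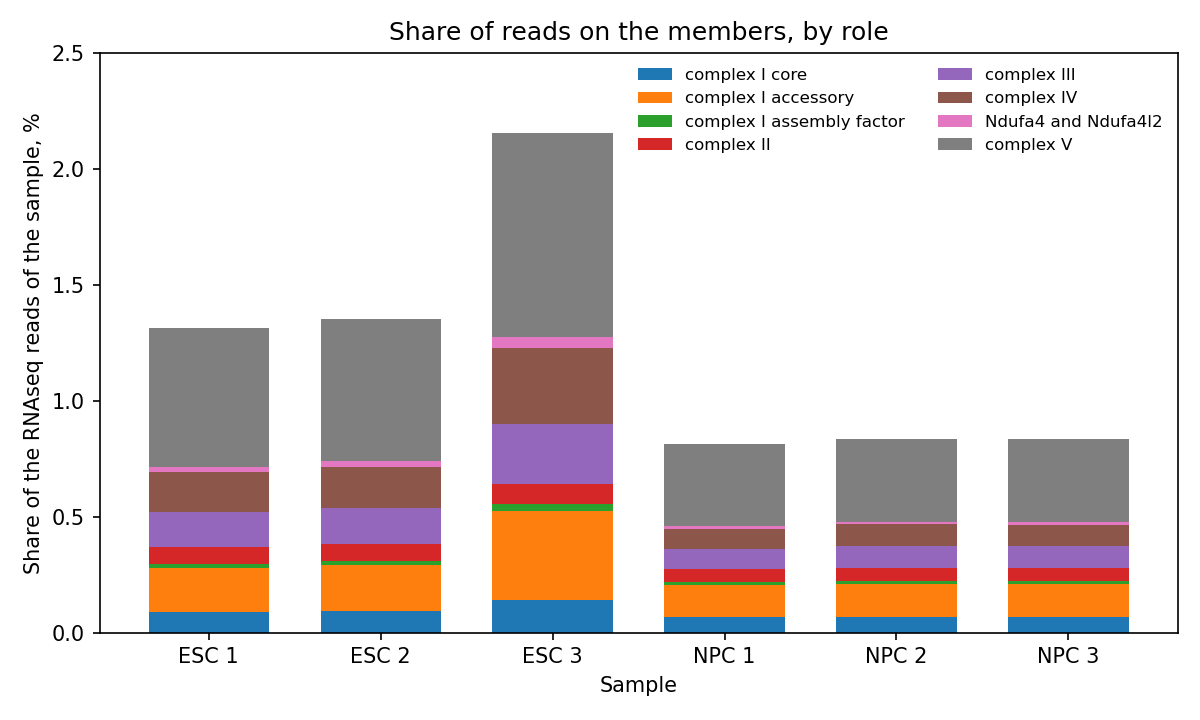
Share of the reads of each RNAseq sample, in percent, that fall on members, stacked by role, for 3 ESC and 3 NPC samples. The stacks reach 1.31%, 1.35% and 2.16% in ESCs and 0.813%, 0.838% and 0.838% in NPCs.

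Of the 90 members, 80 passed the filter (RPKM of at least 1 in at least 3 samples) and were tested with limma among 7835 genes, and a call is an adjusted p under 0.05. Of the tested members 4, Atp5o, Cox7a1, Ndufb2 and Ndufb4, passed the filter through ESC samples alone. Ndufa4l2 passed it through the 3 NPC samples and ESC replicate 3. In NPCs 57 members were lower, where 33.3% of all genes tested were called lower, and 1 member, Ndufa4l2, was higher, where 36.9% of all genes were called higher. Without ESC replicate 3, 65 members were lower (44.0% of all genes) and 6 were higher (43.9% of all genes), namely Ndufa2, Ndufa4l2, Ndufa8, Ndufab1, Ndufs3 and Uqcrh. All 57 lower calls and the higher one were kept, and 13 more were made. The 3 NPC samples lay under all 3 ESC samples for 66 members (38.4% of all genes tested) and over them for 1 member, Ndufa4l2 (41.6% of all genes tested).

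The median log2 difference of members, NPC minus ESC, was -0.80 with all samples and -0.56 without ESC replicate 3, beside 0.025 and -0.0016 for all genes tested. The 1 added to each RPKM shrinks the differences of genes with low RPKM, among them genes with long spans. With all samples the median of members was -0.89 when 0.1 was added and -0.59 when 5 was added. With length removed the median of members was -0.24, beside 0.0079 for all genes, and 46 members were lower and 20 higher, where 3363 and 3425 of 7763 genes were. These numbers of all genes are also the background for the counts by role with length removed. Dividing each sample by its RPKM sum moved the median of all genes from 0.025 to 0.33, because the sums were 104000, 105900 and 140000 in ESCs and 85290, 86520 and 85960 in NPCs, and members then had a median of -0.42, which is 0.75 below all genes, with 44 lower and 3 higher (Cox7c, Ndufa4l2 and Ndufs3), or 93.6% of member calls lower beside 30.6% of all calls. With quantile normalization members lay 0.54 below all genes, and 0.37 below without ESC replicate 3, against 0.83 and 0.56 in the plain comparisons. Members were 98.3% lower among their calls in the plain comparison, beside 47.4% for all genes, 79.2% (47.7% for all genes) with all samples and length removed, and 69.7% (49.5%) without ESC replicate 3 and with length removed. Of the 80 tested members, 26 were tested and lower in all 26 fits, and 5 more (Cox5b, Cox8a, Cyc1, Ndufa11 and Ndufv1) were lower in the 24 fits that tested them.

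**Figure D3:**
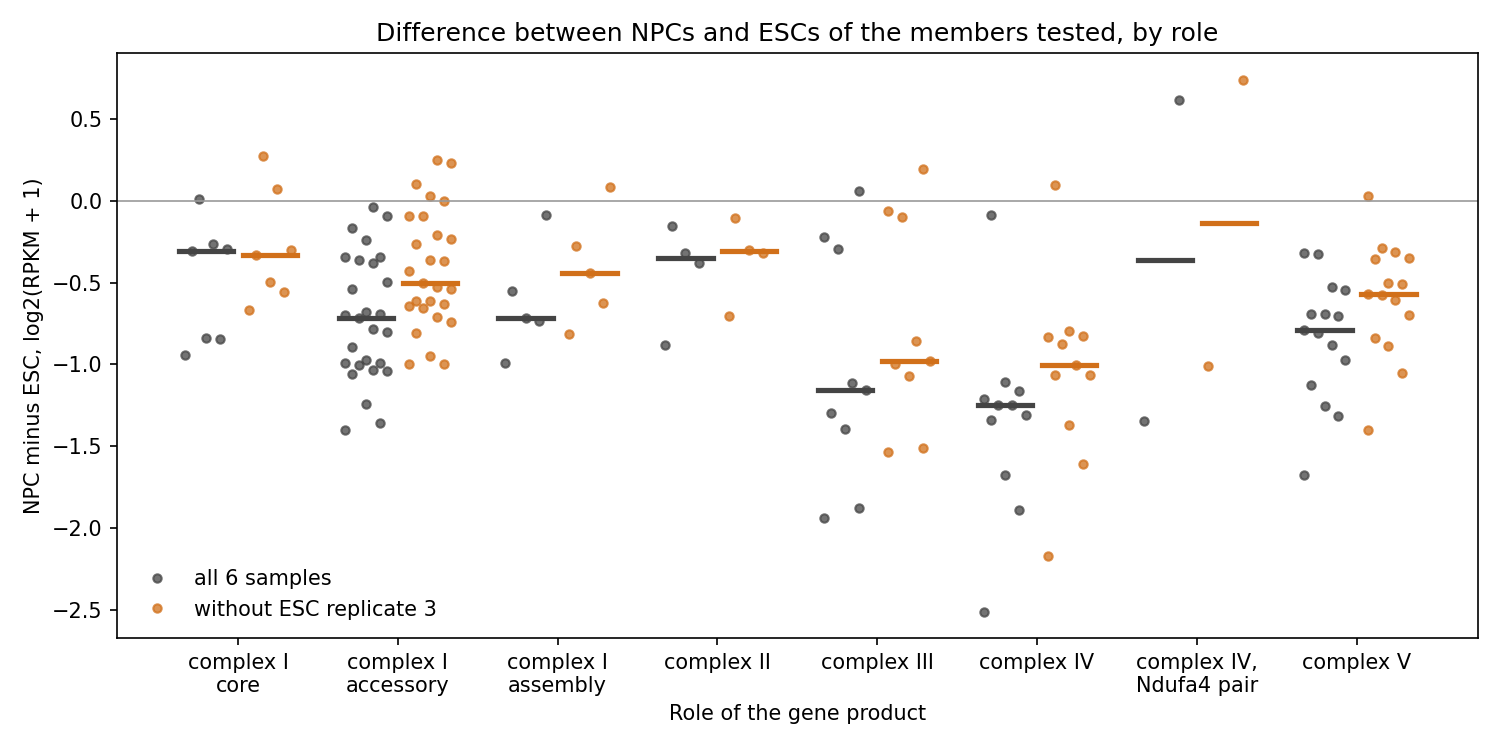
Difference of NPCs minus ESCs on the log2(RPKM + 1) scale for each of the 80 members tested, by role, with all 6 samples (grey) and without ESC replicate 3 (orange), where bars mark medians. Complex IV has the lowest median, -1.25 and -1.004, and of the complexes the core of complex I and complex II lie nearest 0, and with samples divided by their RPKM sum their medians are 0.039 (core) and 0.048 (complex II).

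The core subunits of complex I carry its flavin and iron-sulfur clusters. In the 7 core genes, 5 were lower with all samples and none was higher, with a median of -0.30, and without ESC replicate 3, 5 were lower and 1 was higher, with a median of -0.33. Leaving out NPC replicate 1, 2 or 3 gave 3, 2 and 1 lower genes, in that order. With length removed, 5 were lower and 2 higher (median -0.21), and with samples divided by their RPKM sum, 2 were lower and 1 higher and the median turned to 0.039, still 0.29 below that of all genes. Ndufv1, which binds NADH and the flavin, measured 31.2, 32.9 and 57.5 RPKM in ESC replicates 1, 2 and 3 and 19.3, 20.3 and 19.8 RPKM in NPC replicates 1, 2 and 3. All NPC samples were below all ESC samples. Its log2 difference was -0.94 ± 0.24 (SE, adjusted p = 0.0112) and -0.67 ± 0.048 (adjusted p = 7.8e-06) without ESC replicate 3, and -0.51 with length removed. Ndufv2, an iron-sulfur subunit beside it, measured 7.76, 7.92 and 17.2 RPKM in ESC replicates 1, 2 and 3 and 5.34, 5.32 and 5.15 RPKM in NPC replicates 1, 2 and 3. Again the groups did not overlap, and ESC replicate 3 was more than the sum of the other ESC samples. The difference of Ndufv2 was -0.84 ± 0.29 (adjusted p = 0.0355) and -0.50 ± 0.039 (adjusted p = 1.4e-05) without that replicate.

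Ndufs1, the largest subunit of the electron-carrying arm, measured 4.17, 4.03 and 4.03 RPKM in ESC replicates 1, 2 and 3 and 3.11, 3.25 and 3.08 RPKM in NPC replicates 1, 2 and 3. Its ESC samples lay close together, replicate 3 included, and above the NPC samples. It was lower, at -0.29 ± 0.068 (adjusted p = 0.00814; without ESC replicate 3, -0.30 ± 0.040, adjusted p = 0.000249), although dividing by the RPKM sum gave 0.039. Ndufs3, a core subunit of the part that reduces ubiquinone, measured 4.74, 4.82 and 9.01 RPKM in ESC replicates 1, 2 and 3 and 5.83, 5.92 and 6.23 RPKM in NPC replicates 1, 2 and 3. Here the NPC samples lay above ESC replicates 1 and 2 and below replicate 3. Its difference of 0.011 ± 0.22 (adjusted p = 0.968) did not pass the test with all samples, and without replicate 3 it was higher by 0.28 ± 0.043 (adjusted p = 0.000595). A stretch of 883 of its 1046 transcript bases recurs at 98.5% identity on chromosome 11. Ndufs8 was lower with and without the replicate and Ndufs7 was called in neither.

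The accessory subunits surround the core and stabilise it. In 27 tested genes, 16 were lower and none higher, with a median of -0.71, and without ESC replicate 3, 20 were lower and 3 higher, with a median of -0.50. With any 1 NPC sample left out, 9 were lower. With length removed 12 were lower and 9 higher and the median was -0.027, and with all samples and length removed 9 were lower and 6 higher and the median was -0.19. Over all 7763 genes of these fits 3363 were lower and 3425 higher, and with all samples 2842 and 3111. The shares of accessory genes called lower were thus close to those of all genes. Ndufa11, a subunit of the membrane arm, measured 13.1, 14.6 and 33.2 RPKM in ESC replicates 1, 2 and 3 and 6.28, 6.3 and 6.63 RPKM in NPC replicates 1, 2 and 3. Its groups did not overlap, and the difference was -1.403 ± 0.33 (adjusted p = 0.00869), -1.0 ± 0.056 (adjusted p = 1.9e-06) without ESC replicate 3 and -0.44 with length removed. Ndufs6, a zinc-binding subunit, measured 9.43, 10.1 and 24.1 RPKM in ESC replicates 1, 2 and 3 and 4.53, 4.54 and 4.65 RPKM in NPC replicates 1, 2 and 3. The NPC samples were all below the ESC samples, with a difference of -1.36 ± 0.33 (adjusted p = 0.0102) and of -0.95 ± 0.044 (adjusted p = 7.5e-07) without the replicate.

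Ndufa7, the most abundant accessory subunit in ESCs per transcript length, measured 11.6, 12.8 and 21.3 RPKM in ESC replicates 1, 2 and 3 and 8.46, 9.17 and 8.82 RPKM in NPC replicates 1, 2 and 3. Its recovered reads were not whole numbers with the gene span used, so that this rank is uncertain. All NPC samples were below all ESC samples, and the difference of -0.68 ± 0.22 (adjusted p = 0.0296; without ESC replicate 3, -0.43 ± 0.058, adjusted p = 0.000292) turned to 0.15 with length removed. Ndufa8, a subunit on the side of the intermembrane space, measured 3.26, 3.52 and 6.62 RPKM in ESC replicates 1, 2 and 3 and 4.09, 4.19 and 4.15 RPKM in NPC replicates 1, 2 and 3. ESC replicate 3 was the highest sample and ESC replicates 1 and 2 were the lowest, with the NPC samples between them. Its difference was -0.036 ± 0.22 (adjusted p = 0.893) with all samples and, reversed, 0.23 ± 0.042 (adjusted p = 0.00139) without replicate 3. Ndufa2 and Ndufab1, the mitochondrial acyl carrier protein, were likewise called higher without replicate 3, by 0.25 and 0.11, and not called with all samples. Ndufs4, which is needed for a stable complex I, did not pass the filter, with 0.908, 0.918 and 2.03 RPKM in ESC replicates 1, 2 and 3 and 0.576, 0.566 and 0.583 RPKM in NPC replicates 1, 2 and 3. Its NPC samples were below all ESC samples, and its low RPKM reflect the gene's long span, since it had between 1551 and 6292 reads a sample. Ndufs5 measured 0.0856, 0.0918 and 0.0947 RPKM in ESC replicates 1, 2 and 3 and 0.145, 0.0868 and 0.152 RPKM in NPC replicates 1, 2 and 3, from 13 to 27 reads, with overlapping groups. Over 504 of its 525 transcript bases it is 99.6% identical to a stretch of chromosome 16, and how reads that map to several places were treated is not stated.

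The assembly factors build complex I and are not part of it. Of 5 tested, 3 were lower and none higher (median -0.72), and without ESC replicate 3, 4 were lower (median -0.44), and with length removed 2 were lower and 1, Ndufaf7, was higher (median -0.24). Ndufaf8 measured 6.69, 6.67 and 10.2 RPKM in ESC replicates 1, 2 and 3 and 2.8, 4.11 and 3.33 RPKM in NPC replicates 1, 2 and 3. Its groups did not overlap, with a difference of -0.99 ± 0.19 (adjusted p = 0.00323) and of -0.81 ± 0.11 (adjusted p = 0.000317) without the replicate. Ndufaf4, which acts early in assembly together with Ndufaf3, measured 5.89, 5 and 7.13 RPKM in ESC replicates 1, 2 and 3 and 3.17, 3.23 and 3.13 RPKM in NPC replicates 1, 2 and 3. The NPC samples were all lower, with a difference of -0.73 ± 0.12 (adjusted p = 0.00175; without ESC replicate 3, -0.62 ± 0.062, adjusted p = 4.8e-05) and with length removed of -0.71. Ndufaf3 measured 7.25, 8.58 and 14.8 RPKM in ESC replicates 1, 2 and 3 and 4.93, 5.41 and 6.38 RPKM in NPC replicates 1, 2 and 3, without overlap, a difference of -0.72 ± 0.25 (adjusted p = 0.0379; without ESC replicate 3, -0.44 ± 0.10, adjusted p = 0.00509).

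Ndufaf7, a methyltransferase of mitochondria, measured 1.84, 1.97 and 3.13 RPKM in ESC replicates 1, 2 and 3 and 2.08, 2.14 and 2.02 RPKM in NPC replicates 1, 2 and 3. Its groups overlapped, since ESC replicates 1 and 2 were below every NPC sample and replicate 3 above, and no call was made with or without the replicate. Ndufaf5, Ndufaf6 and Ndufaf2 were below the filter. Ndufaf5, which hydroxylates the core subunit Ndufs7, measured 0.885, 0.883 and 1.45 RPKM in ESC replicates 1, 2 and 3 and 0.379, 0.37 and 0.408 RPKM in NPC replicates 1, 2 and 3. Ndufaf6 measured 0.614, 0.642 and 1.05 RPKM in ESC replicates 1, 2 and 3 and 0.316, 0.347 and 0.343 RPKM in NPC replicates 1, 2 and 3. Both were lower in every NPC sample than in every ESC sample. Ndufaf2 measured 0.0961, 0.102 and 0.195 RPKM in ESC replicates 1, 2 and 3 and 0.0819, 0.0894 and 0.0792 RPKM in NPC replicates 1, 2 and 3, again without overlap, and 65.6% of its exon bases also lie in exons of other genes.

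Complex II is the succinate dehydrogenase of the citric acid cycle. Its 4 genes have longer transcripts than most members, and the median ratio of ESC replicate 3 to the mean of replicates 1 and 2 was 1.13, against 1.86 over all members. With all samples 3 were lower and none higher (median -0.35), and without the replicate all 4 were lower (median -0.31), while division by the RPKM sum left 1 lower and gave a median of 0.048, 0.28 below that of all genes. Sdha, the flavoprotein that oxidises succinate, measured 11.4, 11.1 and 11.8 RPKM in ESC replicates 1, 2 and 3 and 8.97, 9.08 and 8.79 RPKM in NPC replicates 1, 2 and 3. Its 3 ESC samples were close together and above the NPC samples, by a difference of -0.32 ± 0.077 (adjusted p = 0.0098; without ESC replicate 3, -0.30 ± 0.041, adjusted p = 0.00031), or 0.069 after division by the RPKM sum. Sdhb, the iron-sulfur subunit, measured 8.51, 8.59 and 12.8 RPKM in ESC replicates 1, 2 and 3 and 4.72, 5.02 and 4.87 RPKM in NPC replicates 1, 2 and 3. It had the largest difference of the complex, -0.88 ± 0.16 (adjusted p = 0.00271), -0.70 ± 0.042 (adjusted p = 2.7e-06) without replicate 3 and -0.40 with length removed. Sdhd, a membrane anchor, measured 19.7, 19.5 and 22.4 RPKM in ESC replicates 1, 2 and 3 and 15.2, 15.5 and 16 RPKM in NPC replicates 1, 2 and 3. The groups did not overlap, and the difference of -0.38 ± 0.10 (adjusted p = 0.0119; without ESC replicate 3, -0.32 ± 0.044, adjusted p = 0.000333) was -0.043 with length removed. Sdhc, the other anchor, measured 4.9, 5.07 and 5.59 RPKM in ESC replicates 1, 2 and 3 and 4.57, 4.52 and 4.58 RPKM in NPC replicates 1, 2 and 3. It was lower in every NPC sample, and its difference of -0.15 ± 0.078 (adjusted p = 0.121) did not pass the test in the plain comparison and did without replicate 3 (-0.11 ± 0.038, adjusted p = 0.0312). Of the 26 fits, 7 called it lower and 1, without replicate 3 and divided by the RPKM sum, called it higher at 0.13.

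Complex III moves electrons from ubiquinol to cytochrome c. Of its 9 genes, 6 were lower and none higher (median -1.16), and without ESC replicate 3, 7 were lower and 1, Uqcrh, was higher (median -0.98). With length removed the same numbers were 6 and 2 (median -0.43). Uqcrq, a small subunit of the membrane part (chr11:53427922-53430831, minus strand), measured 38.1, 45.5 and 97.4 RPKM in ESC replicates 1, 2 and 3 and 10.8, 15.2 and 15.6 RPKM in NPC replicates 1, 2 and 3. Its NPC samples were all well below its ESC samples, with a difference of -1.94 ± 0.36 (adjusted p = 0.00298), -1.54 ± 0.16 (adjusted p = 5.4e-05) without replicate 3 and -1.34 with length removed. Uqcr10 (chr11:4701973-4704342, minus strand), the most abundant gene of the complex in ESCs per transcript length, measured 61.3, 65.8 and 138 RPKM in ESC replicates 1, 2 and 3 and 20.7, 22 and 22.2 RPKM in NPC replicates 1, 2 and 3. Again the groups were far apart, with -1.88 ± 0.31 (adjusted p = 0.00173), -1.51 ± 0.055 (adjusted p = 2.2e-07) and -0.86 on the same 3 bases. Cyc1, the cytochrome c1 that hands electrons on (chr15:76343523-76346260, plus strand), measured 98.5, 107 and 124 RPKM in ESC replicates 1, 2 and 3 and 44.8, 50.3 and 50.8 RPKM in NPC replicates 1, 2 and 3. Its ESC replicate 3 was 1.20-fold the mean of the other ESC samples, and Cyc1 was lower in NPCs, at -1.16 ± 0.13 (adjusted p = 0.000317), -1.07 ± 0.071 (adjusted p = 5.1e-06) and -0.87.

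Uqcrfs1, the Rieske iron-sulfur protein and with Cyc1 a redox subunit of the complex, measured 19.3, 19.2 and 31.8 RPKM in ESC replicates 1, 2 and 3 and 17.9, 18.5 and 18.8 RPKM in NPC replicates 1, 2 and 3. All NPC samples were below all ESC samples by a small margin, and the difference of -0.29 ± 0.20 (adjusted p = 0.233) did not pass the test, was -0.061 ± 0.044 (adjusted p = 0.227) without replicate 3 and 0.17 with length removed. Uqcrc2, a core protein facing the matrix, measured 6.97, 6.9 and 4.69 RPKM in ESC replicates 1, 2 and 3 and 6.52, 6.26 and 6.42 RPKM in NPC replicates 1, 2 and 3. ESC replicate 3 was its lowest sample and the other ESC samples its highest, so that its difference of 0.059 ± 0.15 (adjusted p = 0.732) turned to -0.10 ± 0.039 (adjusted p = 0.0446) without that sample. That call did not hold with length removed (0.012), and without replicate 3 and divided by the RPKM sum Uqcrc2 was called higher, at 0.15. Uqcrh, the hinge protein between the complex and cytochrome c, measured 17.9, 17.7 and 43.6 RPKM in ESC replicates 1, 2 and 3 and 20.7, 20.4 and 20.2 RPKM in NPC replicates 1, 2 and 3. Its NPC samples lay above ESC replicates 1 and 2 and below replicate 3, and it was higher without that replicate by 0.19 ± 0.041 (adjusted p = 0.00338). Uqcrb, Uqcrc1 and Uqcr11 were lower with and without the replicate and with length removed.

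Complex IV, cytochrome c oxidase, had the lowest median of the complexes. Of 11 genes tested, 10 were lower and none higher, with a median of -1.25, and without ESC replicate 3 again 10 and none, with -1.004. With length removed, 10 were lower and 1, Cox7c, was higher, with a median of -0.48, and Cox7c was also the 1 gene called higher with samples divided by their RPKM sum and with quantile normalization. Cox7a1, the isoform known from heart and skeletal muscle (chr7:30184144-30186078, plus strand), measured 6.2, 5.46 and 12.8 RPKM in ESC replicates 1, 2 and 3 and 0.343, 0.55 and 0.656 RPKM in NPC replicates 1, 2 and 3. Every NPC sample was below 1 RPKM and every ESC sample above 5 RPKM, from 20 to 759 reads a sample, so that Cox7a1 passed the filter through ESC samples alone. The filter decides which genes are tested and does not enter the difference of a gene, so that leaving it out is no check here. The difference of Cox7a1 was the largest of the tested members with all samples, -2.51 ± 0.29 (adjusted p = 0.000289), and without replicate 3, -2.17 ± 0.092 (adjusted p = 4.6e-07), and was -1.48 with length removed. Cox5a, a nuclear-encoded subunit next to the catalytic core (chr9:57521274-57532426, plus strand), measured 8.48, 8.95 and 16.4 RPKM in ESC replicates 1, 2 and 3 and 1.65, 2.54 and 2.43 RPKM in NPC replicates 1, 2 and 3. ESC replicates 1 and 2 were 3.95 times the NPC mean, and the groups did not overlap. It was lower, at -1.89 ± 0.26 (adjusted p = 0.000678), -1.61 ± 0.12 (adjusted p = 9.8e-06) and -1.11 on the same bases, and 12.8% of its exon bases also lie in exons of other genes.

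Cox5b, a zinc-binding subunit, measured 59.3, 61.7 and 123 RPKM in ESC replicates 1, 2 and 3 and 30.04, 36.4 and 35 RPKM in NPC replicates 1, 2 and 3. All NPC samples were below all ESC samples, with a difference of -1.16 ± 0.29 (adjusted p = 0.0113) and of -0.83 ± 0.083 (adjusted p = 5.2e-05) without replicate 3. Cox6a1, the widely expressed isoform of subunit VIa (chr5:115345642-115348981, minus strand), measured 69.4, 72.6 and 133 RPKM in ESC replicates 1, 2 and 3 and 24.1, 28 and 28.5 RPKM in NPC replicates 1, 2 and 3. Its NPC samples were likewise all lower, with a difference of -1.67 ± 0.26 (adjusted p = 0.00141), -1.37 ± 0.077 (adjusted p = 2.1e-06) and -0.83 with length removed. Cox8a, the widely expressed isoform of subunit VIII, measured 86.2, 91.7 and 131 RPKM in ESC replicates 1, 2 and 3 and 36, 46.3 and 44.5 RPKM in NPC replicates 1, 2 and 3. The groups did not overlap, with -1.25 ± 0.20 (adjusted p = 0.00148) and -1.06 ± 0.11 (adjusted p = 5.1e-05). Cox7b measured 34.8, 34.2 and 70.4 RPKM in ESC replicates 1, 2 and 3 and 16.3, 16.9 and 16.9 RPKM in NPC replicates 1, 2 and 3. It was lower in every NPC sample, with a difference of -1.34 ± 0.28 (adjusted p = 0.00524) and -1.004 ± 0.044 (adjusted p = 5.5e-07).

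Cox7c was the member of the complex that differed least, and measured 75.9, 69.5 and 107 RPKM in ESC replicates 1, 2 and 3 and 74.6, 81.7 and 77.2 RPKM in NPC replicates 1, 2 and 3. Its groups overlapped, with -0.085 ± 0.18 (adjusted p = 0.695) and 0.10 ± 0.061 (adjusted p = 0.169) without replicate 3, and with length removed it was higher by 0.66 (adjusted p = 3.6e-05). At 3 other places of the genome over 50% of its transcript recurs at 95% identity or more. Cox6c was lower with and without the replicate and with length removed.

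Several subunits of complex IV exist as isoforms from separate genes, and the share of each was compared per transcript length. Cox7a2, the widely expressed isoform beside Cox7a1, measured 36.1, 36.5 and 87 RPKM in ESC replicates 1, 2 and 3 and 19.8, 19.5 and 20.4 RPKM in NPC replicates 1, 2 and 3. Both genes were lower in every NPC sample, but Cox7a1 far more so, and its share of the pair was 10.98%, 9.70% and 9.52% in the ESC samples and 1.23%, 1.98% and 2.26% in the NPC samples. The share of Cox7a1 in ESC replicate 3 was close to that in replicates 1 and 2, and that sample was the highest ESC sample for both genes. Cox6b1, on the outer face of the complex, measured 27.8, 28 and 57 RPKM in ESC replicates 1, 2 and 3 and 15.2, 14.6 and 14.5 RPKM in NPC replicates 1, 2 and 3. Its testis isoform Cox6b2 measured 47, 49.7 and 93 RPKM in ESC replicates 1, 2 and 3 and 24.9, 29.1 and 28.5 RPKM in NPC replicates 1, 2 and 3. Both were lower in every NPC sample, with a difference of -1.21 and -1.10 with all samples and of -0.87 and -0.80 without replicate 3. The higher RPKM of Cox6b2 go with its shorter gene span. Per transcript length Cox6b2 had the smaller share of the pair, 20.02%, 20.83% and 19.46% in ESCs and 19.54%, 22.85% and 22.46% in NPCs. Cox6a1, Cox7b and Cox8a made up over 99% of their sets in every sample. Their partners did not pass the filter. The muscle isoform Cox6a2 measured 0.185, 0.28 and 0.512 RPKM in ESC replicates 1, 2 and 3 and 0.105, 0.231 and 0.26 RPKM in NPC replicates 1, 2 and 3, with overlapping groups. Cox8b, a further muscle isoform, had at most 2 reads and Cox8c, known from testis, at most 5 reads in any sample. Cox7b2, also of testis, was listed at 0.00529, 0.00647 and 0.0117 RPKM in ESC replicates 1 to 3 and at 0, 0.000348 and 0 RPKM in the NPC samples, from at most 38 reads. Whether the share of an isoform differed between cell types was not tested.

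Ndufa4, first named as a complex I subunit and now known as a subunit of complex IV, measured 32.9, 34.6 and 68.1 RPKM in ESC replicates 1, 2 and 3 and 16.7, 16 and 16 RPKM in NPC replicates 1, 2 and 3. All NPC samples were below all ESC samples, and the difference was -1.34 ± 0.28 (adjusted p = 0.00495), -1.01 ± 0.047 (adjusted p = 7.7e-07) without replicate 3 and -0.49 with length removed, in the range of complex IV. Its relative Ndufa4l2, known as a gene induced by low oxygen (chr10:127514967-127517154, plus strand), measured 0.712, 0.596 and 1.14 RPKM in ESC replicates 1, 2 and 3 and 1.7, 1.9 and 1.7 RPKM in NPC replicates 1, 2 and 3. Here every NPC sample was above every ESC sample, replicate 3 included. Ndufa4l2 was higher by 0.62 ± 0.11 (adjusted p = 0.00297), 0.74 ± 0.048 (adjusted p = 4.4e-06) and 1.10, and kept this direction under each scaling, though with quantile normalization of all 6 samples it was not called. Of the ESC samples only replicate 3 reached 1 RPKM, so that Ndufa4l2 needed NPC samples, where it was higher, to pass the filter. Without a filter it was called higher too. Its level stayed low, between 44 and 120 reads a sample, and per transcript length its share of the pair was 0.428%, 0.341% and 0.332% in ESCs and 1.98%, 2.297% and 2.06% in NPCs.

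**Figure D4:**
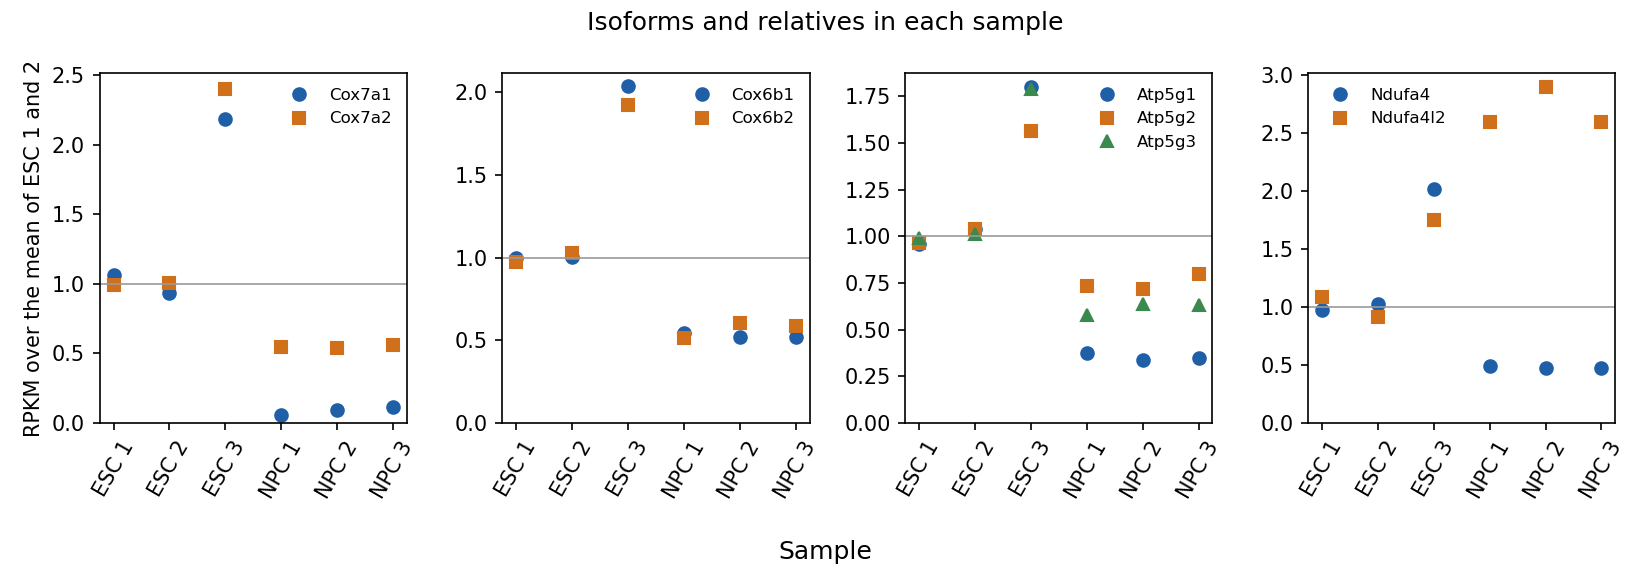
RPKM of isoforms and relatives in each sample, divided by the mean of ESC replicates 1 and 2 of the same gene, for 3 ESC and 3 NPC samples, with a line at 1. Cox7a1 lies lowest in the NPC samples, and Ndufa4l2 is the gene that lies above 1 in all of them.

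ATP synthase, complex V, uses the proton gradient to make ATP. Of its 15 genes, 13 were lower and none higher (median -0.79), and without ESC replicate 3, 14 were lower and none higher (median -0.57), leaving Atp5d. Leaving out NPC replicate 1, 2 or 3 gave 8, 10 and 9 lower genes, in that order. With length removed, 7 were lower and 4 higher (Atp5d, Atp5e, Atp5l and Atp5o), with a median of -0.13. Of all 7763 genes 3363 were lower and 3425 higher in that fit, so that the share called lower was close to that of all genes. Atp5b, the catalytic beta subunit and the most abundant member in both cell types per transcript length (chr10:128083273-128090391, plus strand), measured 313, 319.6 and 368 RPKM in ESC replicates 1, 2 and 3 and 148, 154 and 153 RPKM in NPC replicates 1, 2 and 3. ESC replicates 1 and 2 were 2.08 times the NPC mean, and the groups did not overlap. The difference was -1.13 ± 0.14 (adjusted p = 0.000428), -1.05 ± 0.044 (adjusted p = 4.1e-07) without replicate 3 and -0.95 with length removed. Atp5a1, the alpha subunit, measured 146, 150.2 and 178 RPKM in ESC replicates 1, 2 and 3 and 96.1, 96.9 and 98.5 RPKM in NPC replicates 1, 2 and 3. Its NPC samples were all lower, with a difference of -0.69 ± 0.13 (adjusted p = 0.00358), -0.60 ± 0.043 (adjusted p = 7.8e-06) and -0.56. The transcripts of Atp5b and Atp5a1 are longer than those of most members, with 1916 and 2471 bases.

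The ring of c subunits, which turns as protons pass, is encoded by Atp5g1, Atp5g2 and Atp5g3, whose mature proteins are the same. Atp5g1 (chr11:96068852-96075670, minus strand) measured 22.8, 24.7 and 42.8 RPKM in ESC replicates 1, 2 and 3 and 8.87, 7.97 and 8.32 RPKM in NPC replicates 1, 2 and 3. ESC replicates 1 and 2 were 2.84 times the NPC mean, and it was lower, at -1.68 ± 0.24 (adjusted p = 0.000811) and -1.401 ± 0.059 (adjusted p = 4.7e-07) without replicate 3. Its value with length removed is left out, since it rests on a GENCODE length that RefSeq does not share. Atp5g3, the main gene of the 3, measured 125, 128 and 226 RPKM in ESC replicates 1, 2 and 3 and 73.1, 80.2 and 79.5 RPKM in NPC replicates 1, 2 and 3. Its groups did not overlap either, with -0.97 ± 0.25 (adjusted p = 0.0121), -0.70 ± 0.055 (adjusted p = 1.4e-05) without replicate 3 and -0.24 with length removed. Atp5g2 measured 6.33, 6.83 and 10.3 RPKM in ESC replicates 1, 2 and 3 and 4.82, 4.72 and 5.24 RPKM in NPC replicates 1, 2 and 3. It too was lower in every NPC sample, with a difference of -0.55 ± 0.17 (adjusted p = 0.0269) and -0.36 ± 0.055 (adjusted p = 0.000569), and at 0.094 with length removed. The share of Atp5g1 among the 3 depends on its length, 4715 bases in GENCODE and 805 in RefSeq: per RefSeq length it was 24.7%, 25.6% and 25.7% in ESCs and 17.2%, 14.8% and 15.2% in NPCs, and Atp5g3 had between 62.1% and 70.0% in every sample.

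Atp5j2, the f subunit of the membrane part, measured 23.8, 24.4 and 60.5 RPKM in ESC replicates 1, 2 and 3 and 13.1, 12.2 and 12.5 RPKM in NPC replicates 1, 2 and 3. All NPC samples were below all ESC samples, with a difference of -1.32 ± 0.35 (adjusted p = 0.0148), -0.88 ± 0.048 (adjusted p = 1.7e-06) and -0.53. Atp5d, the delta subunit of the central stalk, measured 22.1, 24.7 and 48.8 RPKM in ESC replicates 1, 2 and 3 and 21.5, 23.6 and 26.8 RPKM in NPC replicates 1, 2 and 3. Its NPC samples overlapped ESC replicates 1 and 2, and the difference was -0.32 ± 0.30 (adjusted p = 0.37) with all samples and 0.027 ± 0.095 (adjusted p = 0.794) without replicate 3. Atp5s, known as coupling factor B, measured 0.253, 0.23 and 0.356 RPKM in ESC replicates 1, 2 and 3 and 0.574, 0.672 and 0.713 RPKM in NPC replicates 1, 2 and 3 and did not pass the filter. It was higher in every NPC sample than in every ESC sample, from 153 to 454 reads, and was called higher in each of the 5 alternatives whose filter it passed.

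Genes outside the rule that work with the members were counted from lists. Of all genes tested, 33.3% were lower and 36.9% higher, and 44.0% and 43.9% without ESC replicate 3. Cyct and Esrrb passed the filter through ESC samples alone and Mrpl23 through NPC samples alone. Of 7 other respiratory chain genes in the tables, 6 were tested, of which 4 were lower and none higher with and without ESC replicate 3 (medians -0.97 and -0.63). Cycs, the cytochrome c of most cells, measured 12.3, 12 and 18.9 RPKM in ESC replicates 1, 2 and 3 and 4.86, 5.2 and 5.04 RPKM in NPC replicates 1, 2 and 3. Cyct, its testis relative, measured 1.77, 1.44 and 3.08 RPKM in ESC replicates 1, 2 and 3 and 0.0459, 0.0169 and 0.0238 RPKM in NPC replicates 1, 2 and 3. Both were lower in every NPC sample, Cycs at -1.32 and -1.12 and Cyct at -1.55 and -1.34 with and without replicate 3. Cox4i1, the main isoform of subunit IV, was lower as well (-1.04 and -0.67), while its relative Cox4i2 stayed under 1 RPKM.

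Of the 13 protein genes of the mitochondrial genome, 6 are listed at 0 in all samples (mt-Atp6, mt-Atp8, mt-Co2, mt-Co3, mt-Nd3 and mt-Nd4l), and what removed them is not known. The other 7 were called in neither direction with all samples, and all 7 were lower in NPCs without ESC replicate 3, with a median of -0.43. Reads on mitochondrial genes made up 1.97%, 1.86% and 1.02% of reads in ESC replicates 1 to 3, and 1.39%, 1.36% and 1.28% in the NPC samples. ESC replicate 3 was thus the lowest sample for these genes summed and the highest for most nuclear members. mt-Co1, the catalytic subunit of complex IV, measured 4891, 4748 and 2591 RPKM in ESC replicates 1, 2 and 3 and 3529, 3423 and 3432 RPKM in NPC replicates 1, 2 and 3.

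Of 21 tested assembly factors of complexes II to V, 5 were lower and 2 higher (median -0.25), and without ESC replicate 3, 8 and 2 (median -0.10). Pet100, a factor of complex IV assembly, fell by 0.94 and Coa6, which takes part in copper delivery to complex IV, by 0.76 on the log2 scale, and without ESC replicate 3 they fell by 0.56 and fell by 0.72. Cox19, also of the copper pathway, measured 0.866, 0.866 and 1.69 RPKM in ESC replicates 1, 2 and 3 and 2.13, 1.97 and 1.94 RPKM in NPC replicates 1, 2 and 3. Every NPC sample was above every ESC sample, by 0.51 ± 0.15 (adjusted p = 0.0203) and 0.69 ± 0.038 (adjusted p = 1.9e-06) without replicate 3. Of the ESC samples only replicate 3 reached 1 RPKM, so that Cox19 needed NPC samples to pass the filter. Tmem70, needed to assemble ATP synthase, measured 1.39, 1.18 and 1.36 RPKM in ESC replicates 1, 2 and 3 and 2.1, 2.24 and 2.24 RPKM in NPC replicates 1, 2 and 3. It was higher in all NPC samples too, by 0.47 ± 0.063 (adjusted p = 0.000681; without ESC replicate 3, 0.48 ± 0.048, adjusted p = 5e-05). Of 5 tested complex I assembly genes outside the Ndufaf series, Ecsit (-0.62 and -0.52) and Foxred1 (-0.35 and -0.37) were lower and Tmem126b (0.25 and 0.27) was higher, with and without ESC replicate 3 (medians of the list -0.048 and 0.0097), and Foxred1 was at 0.017 after division by the RPKM sum.

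In the citric acid cycle, 5 of 13 tested genes were lower and 3 higher (median -0.34; 33.3% and 36.9% of all genes), and without ESC replicate 3, 9 were lower and 4 higher (median -0.43). Idh3a, the catalytic subunit of the NAD-dependent isocitrate dehydrogenase, measured 9.14, 8.53 and 9.83 RPKM in ESC replicates 1, 2 and 3 and 2.89, 3.06 and 3.21 RPKM in NPC replicates 1, 2 and 3. Its ESC samples were all far above its NPC samples, with a difference of -1.33 ± 0.085 (adjusted p = 1.6e-05; without ESC replicate 3, -1.28 ± 0.051, adjusted p = 3.5e-07). Mdh2, the malate dehydrogenase of mitochondria, was lower, at -0.79 and -0.59 with and without ESC replicate 3, and Dlst, of the oxoglutarate dehydrogenase complex, and Idh2, the NADP-dependent isocitrate dehydrogenase, were higher by 0.44 and 0.36, and by 0.40 and 0.42 without it. Among 7 tested carriers and pores, 6 were lower and none higher (median -0.51), and without replicate 3, 6 were lower and 1, Slc25a4, was higher (median -0.40). Slc25a5, an exchanger of ADP and ATP, measured 147, 152 and 209 RPKM in ESC replicates 1, 2 and 3 and 47.8, 48.8 and 53.1 RPKM in NPC replicates 1, 2 and 3. Slc25a4, an exchanger of the same kind, measured 44.4, 44.5 and 71.3 RPKM in ESC replicates 1, 2 and 3 and 73.2, 74.3 and 74.8 RPKM in NPC replicates 1, 2 and 3. The pair went opposite ways, with Slc25a5 lower, at -1.72 and -1.56 with and without replicate 3 and Slc25a4 above every ESC sample, by 0.50 (adjusted p = 0.0646) and 0.72 (adjusted p = 2.5e-06). Vdac1, a channel of the outer membrane, was lower, at -1.29 and -1.21.

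Of the regulators of mitochondrial biogenesis, 3 of 10 tested were lower and 2 higher (median -0.13), and without ESC replicate 3, 5 and 2 (median -0.14). Pprc1, a coactivator of the PGC-1 family, measured 14.3, 14.8 and 9.31 RPKM in ESC replicates 1, 2 and 3 and 4.75, 5.53 and 5.61 RPKM in NPC replicates 1, 2 and 3. It was lower in all NPC samples, with a difference of -1.11 ± 0.18 (adjusted p = 0.00165) and -1.31 ± 0.068 (adjusted p = 1.4e-06). Esrrb, a nuclear receptor of the ERR family that also marks ESCs, measured 4.95, 5.1 and 2.91 RPKM in ESC replicates 1, 2 and 3 and 0.00889, 0.00526 and 0.00482 RPKM in NPC replicates 1, 2 and 3, lower at -2.37 and -2.58 with and without replicate 3. Yy1, a zinc finger factor, was higher by 0.35 and, without replicate 3, 0.25, though it was at -0.045 with length removed in all samples, and Gabpb1, a partner of the ETS factor Gabpa, was higher by 0.16 and 0.15, though at -0.11 with quantile normalization. Mitochondrial ribosomal proteins were mostly lower: of 71 tested among 78, 45 were lower and 1, Mrpl23, was higher (median -0.68), and 55 and 5 without replicate 3 (median -0.47). Mrps18b, of the small subunit, measured 7.23, 7.84 and 8.8 RPKM in ESC replicates 1, 2 and 3 and 1.69, 1.79 and 1.85 RPKM in NPC replicates 1, 2 and 3. It was lower, at -1.69 and -1.62 with and without replicate 3, as was Mrps12, at -1.60 and -1.36, and Mrpl23 was higher by 0.69 and 0.71.

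The position of members in NADs was taken from the deposited lists, with 1769 NADs in ESCs and 1447 in NPCs. The paper describes NADs as the significant peaks that both replicates shared. Of the 90 members, 29 overlapped an ESC NAD (32.2%, 95% exact interval 22.8% to 42.9%), beside 26.9% of 21627 placed genes, and 18 an NPC NAD (20.0%, 12.3% to 29.8%), beside 21.4%. Among the genes tested, 23.1% overlapped an ESC NAD and 20.1% an NPC NAD. The intervals treat members as independent genes, although genes can share a NAD and each cell type has 1 pooled list, so that they are a description only. In both lists were 14 members, in that of ESCs alone 15, in that of NPCs alone 4 and in neither 57. Of all placed genes these classes held 14.4%, 12.5%, 7.06% and 66.1%. The 14 tested members in ESC NADs alone had a median log2 difference of -0.71 with all samples (12 lower) and -0.57 without ESC replicate 3 (13 lower), beside -0.88 (37 lower) and -0.61 (41 lower) for the 52 tested members in neither list. The 11 tested members in both lists had medians of -0.55 (6 lower) and -0.36 (8 lower), and the 3 in NPC NADs alone -0.97 (2 lower) and -0.54 (3 lower). Ndufa4 lies in a NAD of ESCs at chr6:11898276-12100271 and in one of NPCs at chr6:11499563-12899579. Ndufs3, a gene higher in NPCs without the replicate, lies in NADs of both cell types as well, at chr2:90699891-90999688 and chr2:90700148-91000087. Whether members differ from other genes in position was not tested.

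The promoters of members were searched for 4 short motifs of factors known for respiratory genes, on both strands, in RefSeq sequences of 300 bases from 250 before to 50 after the start of transcription (GRCm38.p6), of which 73 members have an entry. Members without an entry include Atp5a1, Atp5f1, Atp5s, Cox6a2, Cox6c, Cox8c, Cyc1, Ndufa2, Ndufa4l2, Ndufaf6, Ndufb9, Ndufs1, Sdhc, Uqcrb, Uqcrc2 and Uqcrq. GCGCANGCG, the core of the site of NRF1, a factor of nuclear genes for mitochondria, was in 22 of the 73 (30.1%, 95% exact interval 19.9% to 42.0%), beside 6.25% of 32851 promoters and 15.6% of those of tested genes. CCGGAAG, the core bound by ETS factors such as Gabpa, was in 18 (24.7%, 15.3% to 36.1%), beside 8.86% and 20.2%. AAGATGGCG, bound by Yy1, was in 8 (10.96%, 4.85% to 20.5%), each time on the sense strand, beside 1.403% and 3.65%. TCAAGGTCA, bound by receptors of the ERR family, was in 2, Atp5g3 and Sdhd (2.74%, 0.334% to 9.55%), beside 0.423% and 0.300%. In all 39 members had a motif and 10 had more than 1 kind.

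Promoters of 4 of these 10 are shown, 1 each from complexes I to IV, of genes that were lower in NPCs with and without ESC replicate 3, with the matches in capitals. GCGCANGCG and its reverse complement CGCNTGCGC can overlap, so that a run of 10 capitals holds both. That of Sdhd (window chr9:50603800-50604099, minus strand) is the 1 with 3 kinds, GCGCANGCG and, on the other strand, CCGGAAG and TCAAGGTCA. That of Cox6a1 (window chr5:115348909-115349208, minus strand) holds GCGCANGCG at 2 places and CCGGAAG on the other strand, that of Ndufs6 (window chr13:73328433-73328732, minus strand) GCGCANGCG on the other strand and AAGATGGCG, and that of Uqcr11 (window chr10:80406772-80407071, minus strand) CCGGAAG and, on the other strand, GCGCANGCG. The matches describe letters in these windows, and binding was not measured.
Sdhd: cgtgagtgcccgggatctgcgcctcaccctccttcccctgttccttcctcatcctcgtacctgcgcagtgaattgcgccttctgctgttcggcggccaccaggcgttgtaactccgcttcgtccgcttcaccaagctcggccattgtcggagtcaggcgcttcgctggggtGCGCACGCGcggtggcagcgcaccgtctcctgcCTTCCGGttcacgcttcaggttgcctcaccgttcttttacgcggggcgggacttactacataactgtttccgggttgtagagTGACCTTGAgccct
Cox6a1: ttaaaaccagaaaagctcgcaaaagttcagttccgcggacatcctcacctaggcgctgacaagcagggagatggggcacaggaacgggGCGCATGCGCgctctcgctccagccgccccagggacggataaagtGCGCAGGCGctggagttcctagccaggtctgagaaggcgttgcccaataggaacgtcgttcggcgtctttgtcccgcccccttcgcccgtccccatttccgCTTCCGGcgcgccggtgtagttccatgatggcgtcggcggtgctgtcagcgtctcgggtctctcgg
Ndufs6: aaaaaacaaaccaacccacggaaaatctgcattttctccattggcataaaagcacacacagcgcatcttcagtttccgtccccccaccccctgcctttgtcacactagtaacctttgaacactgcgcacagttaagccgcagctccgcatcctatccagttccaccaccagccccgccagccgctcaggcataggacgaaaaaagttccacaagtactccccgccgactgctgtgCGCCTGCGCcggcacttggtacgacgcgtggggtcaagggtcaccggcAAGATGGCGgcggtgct
Uqcr11: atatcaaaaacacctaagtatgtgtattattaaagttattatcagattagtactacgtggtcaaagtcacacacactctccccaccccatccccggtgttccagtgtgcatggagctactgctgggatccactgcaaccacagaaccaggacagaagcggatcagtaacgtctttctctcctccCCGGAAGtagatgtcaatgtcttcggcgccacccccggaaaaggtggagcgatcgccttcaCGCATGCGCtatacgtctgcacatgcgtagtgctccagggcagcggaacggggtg

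The values of some members carry limits from their sequence. In 17 members over 50% of the main transcript recurs elsewhere in the genome at 95% identity or more, among them Atp5l, with 10 such places, and Atp5h, Cox7c and Uqcrb, with 3 each. In 12 members over 10% of the exon bases also lie in exons of other genes, Ndufaf2, Atp5o (39.5%) and Ndufb6 (39.0%) leading, and whether strand was used in counting is not stated.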

How the data were processed

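Expression was taken from deposited RPKM of 3 ESC and 3 NPC samples, for which the authors filtered reads with SortMeRNA and Trimmomatic, aligned them to mm10 with STAR and counted exon coverage per gene, each sample on its own; the use of strand and of reads with several places is not stated. The labels' tool lists also name Bowtie2 2.3.4.3, Subread 1.4.6-p4 and deepTools 3.2.1. NAD positions are as deposited, 1 list per cell type made from both replicates, with a score that the authors computed from the nucleolar construct relative to H2B-Dam alone (log2 scale), used here only to choose the NADs of at least the median score in an alternative.

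The deposited RPKM give whole read numbers (within 0.05) when multiplied by the span of the gene, end minus start: 94.8% to 95.1% of values of 1 to 1000 reads in a sample (93.86% to 93.95% of values above 0), against 87.9% to 89.8% with 1 base more, 12.3% to 13.1% with the union of exons and 12.0% to 13.1% with the longest transcript. They thus compare a gene between samples. Of the 90 members, 78 gave whole reads in all 6 samples. The others, among them Ndufa7, Cox5b, Cox8a, Cyc1, Ndufa11 and Ndufv1, were left out of the voom fits. Their read numbers and their levels beside other members are less certain. Levels of different members were compared after division by the length of the main transcript (GENCODE M21, the longest principal transcript with a RefSeq match), or of the RefSeq transcript for the Atp5g genes. Sums and most abundant genes of the marker lists are in RPKM, without this division. Library sizes recovered in this way lie between 27.26 and 34.05 M reads, and the 80 tested members had at least 20 reads in each sample.

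NPCs were compared with ESCs by limma 3.58.1 in R 4.3.3 (lmFit, eBayes with trend) on log2(RPKM + 1), without covariates, for genes with RPKM of at least 1 in at least 3 samples. P-values are two-sided and adjusted by Benjamini-Hochberg over 7835 genes, and a call is an adjusted p under 0.05. For 153 symbols on more than 1 line, the line with the highest mean was used, so that the 92 lines of members gave 90 genes. Tables were made with Python 3.11.15, numpy 2.4.6, pandas 2.3.3 and scipy 1.17.1, figures with matplotlib 3.10.9, and further copies of transcripts in the genome were sought with BLAST 2.17.0 (at least 100 bases at 95% identity).

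The alternatives were other pseudocounts, no filter or a filter on the mean, median scaling, division by the RPKM sum (TPM), quantile normalization, removal of each sample's loess trend with transcript length, sample weights, a replicate block, no trend of variance, and each sample left out; for NADs, overlap of the start of transcription or with higher-scoring NADs, and for motifs the sense strand alone. TPM is used here only as a name for division by the RPKM sum, since these RPKM rest on gene spans and not on transcript lengths. Reads per kilobase of transcript, voom on recovered reads, and 6 of the scalings without ESC replicate 3 were chosen after seeing the data.

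The members and lists were chosen with earlier results of these data known. Named genes are catalytic and redox subunits, isoform sets, label checks, members that missed the filter, and then, per role, the 2 strongest calls in each direction (every call where there are 4 or fewer), the gene with the smallest difference and the most abundant in ESCs, and per pathway list the 2 strongest calls in each direction. Every other gene named with a result was named after its values were seen, among them Ndufa2, Ndufab1, Ndufb6, Ndufb9, Ndufs7, Ndufs8, Uqcrh, Uqcrb, Uqcrc1, Uqcr11, Cox4i1, Cox4i2, Cox6c, Atp5e, Atp5f1, Atp5h, Atp5l, Atp5o, Slc25a4 and mt-Co1. 1 gene of this rule is not reported here by name and counts in the lists.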

Additional observations from a re-analysis of the deposited data

How the results depend on the processing

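The 57 lower members (of 80) were 40 to 65 when 1 sample was left out, and the median difference of members stayed below 0 in each of the 25 alternatives. Members called higher numbered 1 with all samples and 1 to 6 with 1 sample left out, 2 without a filter, 3 with TPM, 11 with the length trend removed, 4 with sample weights, and 2 both per kilobase of transcript and with voom. Without ESC replicate 3 they numbered 15 (TPM), 9 (quantile normalization), 3 (median scaling), 7 (per kilobase of transcript), 7 (voom) and 20 (length trend removed). The median of members was -0.42 with TPM, -0.27 with the length trend removed, and without ESC replicate 3 -0.31 (TPM), -0.42 (quantile normalization) and -0.24 (length trend removed). TPM, reads per kilobase of transcript and voom moved the median of all genes to 0.33, 0.23 and 0.40, and to 0.21, 0.15 and 0.29 without ESC replicate 3. The distances of members from all genes were then -0.75, -1.16 and -1.31, and -0.52, -0.77 and -0.93 without that replicate. Calls over all genes were 11454 without a filter (4209 lower, 7245 higher), 9042 per kilobase of transcript (5394 higher), 10085 with voom (6296 higher), 1612 lower with TPM, and without ESC replicate 3 10989 per kilobase of transcript (4815 lower, 6174 higher) and 11996 with voom (4931 lower, 7065 higher), where more genes were tested except with TPM. Of member calls, 76.9% were lower with TPM without ESC replicate 3, against 91.5% without that replicate alone. The share of members in NADs was 28.9% (ESCs) and 17.8% (NPCs) by the start of transcription and 23.3% and 14.4% in NADs of at least the median score, beside 23.4% and 18.75%, and 16.4% and 12.2%, of all genes. On the sense strand alone the ETS motif was in 9.59% and the ERR motif in 0% of member promoters, beside 11.7% and 0.157% of those of tested genes, so that for ETS members were below tested genes and not above them as on both strands. Genes named by rule turned direction as follows, where they were called in the main comparison or in the alternative (other turns are not listed in full). With TPM: Ndufs1 0.039, Sdha 0.069, Sdhd 0.026, Cox7c 0.34, Foxred1 0.017. With quantile normalization: Cox7c 0.45, Gabpb1 -0.11. With the length trend removed: Atp5g2 0.15, Ndufa8 0.57, Ndufa7 0.18, Sdhd 0.057, Cox7c 0.76, Yy1 -0.045. With sample weights, whose estimation stopped before it converged: Ndufa8 0.25. With 1 sample left out: Ndufa8 between -0.19 and 0.23, Uqcrc2 between -0.10 and 0.14, both turned by leaving out ESC replicate 3, as were Ndufaf7 (0.084), Cox7c (0.098) and Atp5d (0.027), called in neither, and Uqcrh (0.19), a member not among the genes named by rule, which was then called higher. Ndufs3, called in neither, was at -0.13, -0.12 and -0.013 without ESC replicate 1, ESC replicate 2 and NPC replicate 3. Without it and with TPM: Uqcrfs1 0.21, Ndufa8 0.46, Ndufaf7 0.28, Sdhc 0.13, Cox7c 0.38, Atp5d 0.30. With quantile normalization: Uqcrfs1 0.12, Ndufa8 0.20, Cox7c 0.45, Atp5d 0.25, Gabpb1 -0.059. With median scaling: Ndufa8 0.14, Uqcrc2 -0.20. Per kilobase of transcript: Ndufa8 0.29, Uqcrc2 -0.11. With voom: Ndufa8 0.29, Uqcrc2 -0.12. With the length trend removed: Uqcrfs1 0.17, Atp5g2 0.094, Ndufa8 0.62, Ndufa7 0.15, Ndufaf7 0.23, Cox7c 0.66, Atp5d 0.39, Yy1 -0.015. Uqcrc2, lower at -0.10 without ESC replicate 3, was then called higher with TPM (0.15) and was at 0.012 with the length trend removed. The cause was not tested. ESC and NPC samples share only a number: with a replicate block 55 members were lower and 1 higher (2460 and 2754 over all genes), and 4 of 67 named genes lost their call. Same-numbered samples correlated at 0.11, -0.083 and 0.032 across genes after the group means were removed, and ESC replicate 3 was closest to NPC replicate 2 (0.089), so not every sample was closest to its own number. With 1 NPC sample left out, 40 to 41 members were lower, and with 1 ESC sample left out, 58 to 65. What made these numbers differ was not tested.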
